A study of Mus musculus with 32 samples.

Results

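The genes described here are 10 genes commonly used to recognise reactive astrocytes, namely Gfap, Vim, Serpina3n, Lcn2, Cd44, Timp1, S1pr3, Osmr, Aspg and Hspb1, out of 55341 gene symbols in the count files. They were chosen by name, and their levels were read in astrocytes and in the other cell types of single-cell RNA-seq libraries. The libraries were made from the cortex and the hippocampus of 16 female mice aged 15 months, 1 library of each region per mouse. The 4 groups were WT-vehicle (5 mice), WT-PMX205 (3 mice), Tg2576-vehicle (4 mice) and Tg2576-PMX205 (4 mice), PMX205 being an antagonist of the complement receptor C5aR1 that was given in the drinking water for 12 weeks. Tg2576 is a transgenic mouse line that overproduces human amyloid precursor protein and forms amyloid plaques, and cells were enriched with CD11b beads for microglia and ACSA-2 beads for astrocytes. The genotype labels read WT or APP, whereas the strain labels call the APP animals an Arctic mouse model, name a constitutive C5ar1 knockout in 5 mice and C5a overexpression from the GFAP promoter in 5 more, and contradict the genotype label in 2 mice (WT-vehicle 4 and Tg2576-vehicle 3). In microglia, which express the receptor, C5ar1 was at 38.9 CPM (UMIs per 1000000 UMIs of the same cells, exact 95% interval 21.8 to 64.1) in the 5 mice labelled C5ar1 knockouts, against 32.05 CPM (21.3 to 46.3) in the 5 mice labelled with C5a overexpression and 48.8 CPM (38.96 to 60.3) in the 6 mice with neither label. Of the 15 UMIs in the labelled knockouts, 6 were in WT-vehicle 2 (56.75 CPM) and 7 in WT-vehicle 4 (52.6 CPM), 1 of the mice with contradicting labels, and the other 3 mice held 1, 1 and 0 UMIs. The counts of C5ar1 in WT-vehicle 2 and WT-vehicle 4 thus did not go with the knockout label, although the part of the gene that a knockout would lack is not given in the sources used here, and those of the other 3 mice were too few to say. The groups follow the genotype and treatment labels.

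Astrocytes answer injury, inflammation and amyloid deposits by enlarging and by changing their gene expression, a state called reactive. The best known part of that change is the cytoskeleton, where the intermediate filament proteins GFAP and vimentin (Vim) accumulate. The transcription factor STAT3, switched on by interleukin-6 family cytokines through the receptor subunit gp130, is one of its main drivers, and Osmr encodes the oncostatin M receptor that pairs with gp130. Serpina3n encodes a secreted inhibitor of serine proteases, Lcn2 a secreted protein that binds iron-carrying siderophores, Timp1 an inhibitor of matrix metalloproteinases and Cd44 a receptor for hyaluronan. S1pr3 encodes a receptor for sphingosine 1-phosphate, Hspb1 a small heat shock protein and Aspg an asparaginase. Several of these genes are also used by cells other than astrocytes, Vim above all, which is a general filament of endothelial, mural and ependymal cells.

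The libraries held between 37205 and 1072049 unique molecular identifiers (UMIs, 1 per captured RNA molecule). Of 13917 barcodes, 5965 passed limits of 500 UMIs, 300 genes and 5% mitochondrial UMIs, and 5625 remained after the removal of doublets. Cell types were called with marker genes that include none of the 10 genes. This gave 1237 astrocytes (Slc1a2, Plpp3, Gja1, Mfge8 and Gpr37l1), 2671 microglia, 233 endothelial cells, 259 mural cells (pericytes and smooth muscle cells of vessels), 79 ependymal cells, 26 oligodendrocyte precursors, 19 perivascular macrophages, 7 neurons, 1 oligodendrocyte and 1093 cells of no named type. Median depth was 1063 UMIs in astrocytes, 879 in microglia, 1052 in endothelial cells, 925 in mural cells and 1817 in ependymal cells. A repeated sequence family made up 880 barcodes, of which 494 were among the cells kept, 246 of them microglia, 229 of no named type and 3 astrocytes. Outside this family, 33 barcodes occurred in more than 1 library and covered 66 cells. Levels are given as UMIs per 1000000 UMIs of the same cells (CPM), with exact Poisson intervals of 95%, which cover counting error only. A value of 0 is printed with the level that 3 UMIs would have given.

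The promoters of 4 of the genes are shown, Gfap because it is the defining gene of the list, and Vim, S1pr3 and Hspb1 because their levels differed most between cell types in what follows. All 10 genes were matched in RefSeq (GRCm38.p6), each with 250 bases before and 50 bases after the start of transcription. Capitals mark matches to any of the motifs searched on both strands, namely the STAT site TTCNNNGAA, paired heat shock units TTCNNGAA and GAANNTTC, the AP-1 site TGANTCA, the NF-kB site, the TATA box TATAAA, the GC box GGGCGG and the CArG box.

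Gfap, chr11:102897151-102897450, minus strand: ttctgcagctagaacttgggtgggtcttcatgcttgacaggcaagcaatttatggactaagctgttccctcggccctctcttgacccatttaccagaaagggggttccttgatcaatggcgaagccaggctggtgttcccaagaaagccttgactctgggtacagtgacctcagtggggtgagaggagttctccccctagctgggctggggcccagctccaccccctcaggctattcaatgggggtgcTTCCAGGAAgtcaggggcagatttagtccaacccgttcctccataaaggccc

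Vim, chr2:13574061-13574360, plus strand: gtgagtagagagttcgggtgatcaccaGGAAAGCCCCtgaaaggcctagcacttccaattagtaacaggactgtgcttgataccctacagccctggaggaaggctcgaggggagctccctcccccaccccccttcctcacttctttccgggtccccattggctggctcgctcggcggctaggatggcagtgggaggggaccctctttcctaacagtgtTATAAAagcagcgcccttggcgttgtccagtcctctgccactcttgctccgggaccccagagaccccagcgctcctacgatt

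S1pr3, chr13:51408368-51408667, plus strand: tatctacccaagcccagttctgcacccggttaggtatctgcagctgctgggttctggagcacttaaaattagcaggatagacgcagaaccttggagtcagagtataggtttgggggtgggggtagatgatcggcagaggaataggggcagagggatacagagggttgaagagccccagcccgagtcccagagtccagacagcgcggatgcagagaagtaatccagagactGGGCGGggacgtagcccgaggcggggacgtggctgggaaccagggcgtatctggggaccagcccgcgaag

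Hspb1, chr5:135887669-135887968, plus strand: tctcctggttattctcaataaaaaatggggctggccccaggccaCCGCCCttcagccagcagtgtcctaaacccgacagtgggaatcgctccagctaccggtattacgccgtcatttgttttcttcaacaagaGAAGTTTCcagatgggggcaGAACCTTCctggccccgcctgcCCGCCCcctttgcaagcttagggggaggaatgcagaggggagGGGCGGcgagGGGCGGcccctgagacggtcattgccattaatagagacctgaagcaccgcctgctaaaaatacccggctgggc

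Gfap was the only member with a STAT match, TTCCAGGAA, which begins 2 bases before the start, and 8.30% of all 32851 promoters of this length hold such a match. Hspb1, whose product is induced by heat stress, held GAAGTTTC at 117 bases and GAACCTTC at 97 bases before the start, a pattern found in 7.86% of promoters, and was the only member with either paired heat shock unit. Vim held the only TATA box among the members, 32 bases before its start, against 13.6% of all promoters. GC boxes were found in 7 of the 10 members and in 35.7% of all promoters, and the CArG box in none of the members and in 1.63% of all promoters. The NF-kB site was matched in Vim, as GGAAAGCCCC at 223 bases before the start, and in Serpina3n, that is in 2 of the 10 members and in 1.63% of all promoters, and the AP-1 site in Osmr alone and in 7.81% of all promoters. These are matches of letters in a short window and were not tested as binding sites.

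Gfap, Lcn2 and Timp1 were nearly absent from the counts. Gfap, the filament by which astrocytes are usually stained, had 4 UMIs in all 13917 barcodes. In the 1237 astrocytes it had 1 UMI, from a hippocampus library of WT-vehicle 3, or 0.638 CPM (interval 0.0162 to 3.56). Timp1 had 0 UMIs in every barcode, where 3 UMIs in astrocytes would have given 1.92 CPM. Lcn2 had 12 UMIs in all barcodes and 0 in astrocytes, and the 3 UMIs in cells kept were all in endothelial cells. All 15 genes of a list of resting astrocyte genes, none of them used in the gate, were detected in the gated astrocytes, with a median of 1364 CPM. The study states, however, that its cells did not cover every astrocyte subpopulation, so that levels given here describe the astrocytes recovered.

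The position of these genes in the annotation is given beside their counts. Gfap (chr11:102887336-102900912, minus strand, GENCODE M21) lies wholly within the span of the non-coding gene Gm26668 on the plus strand, and Timp1 (chrX:20870166-20874735, plus strand) lies wholly within Syn1 on the minus strand. Gm26668 had 35 UMIs in all barcodes and Syn1 had 96. None of the other 8 members lies wholly within another gene, although S1pr3 is partly overlapped by Gm32834. Of all 1262 protein-coding genes that lie wholly inside another gene, 75.2% had 0 UMIs, against 18.6% of the 20626 that do not. Among the fixed gene lists and markers, 8 of 10 genes inside another gene had fewer than 10 UMIs (the astrocyte genes Gfap and Synm, the chemokine Cxcl10, the cytokine Cntf, Timp1, Ptx3, Ugt1a1 and C1ql1, the last also within Gm26668), against 8 of 137 genes outside. How reads over such overlaps were assigned was not tested, so the low counts of Gfap and Timp1 cannot be read as low expression. Lcn2 lies in no other gene.

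**Figure D1:**
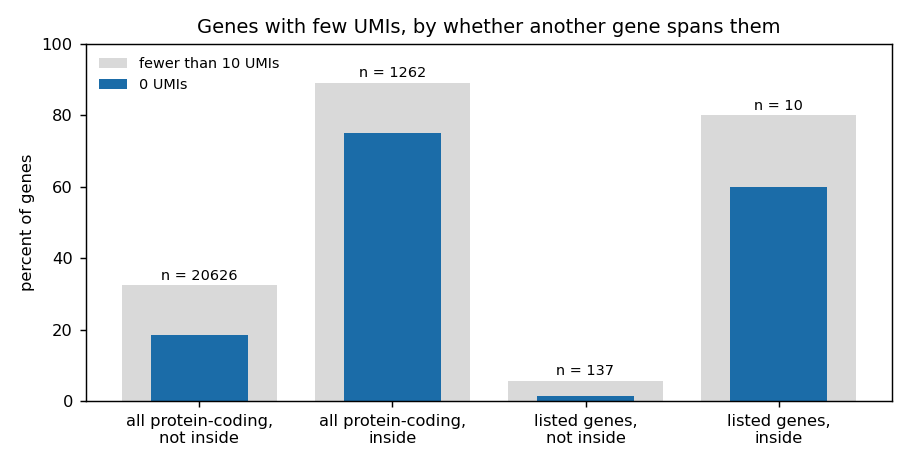
Percentage of genes with 0 UMIs (narrow blue bars) or fewer than 10 UMIs (wide grey bars) in all barcodes, for protein-coding genes and for the fixed lists and markers, split by whether the gene lies wholly inside the span of another gene. Among protein-coding genes 75.2% of those inside and 18.6% of those not inside had 0 UMIs.

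Vim, the vimentin gene, was far higher in ependymal and endothelial cells than in astrocytes. Its level was 64.5 CPM (52.5 to 78.3) in astrocytes and 49.6 CPM (41.98 to 58.3) in microglia. It was 1020 CPM (904 to 1146) in endothelial cells and 2208 CPM (1995 to 2437) in ependymal cells, the ciliated cells that line the ventricles. Mural cells lay between, with 157 CPM (113 to 212), or 263 CPM (72 UMIs) in the 262 cells of the mural cluster named by the same markers, against 53.6 CPM in the astrocyte clusters. Single mice with at least 10 cells of a type were compared next. Ependymal cells gave 1409, 2134 and 3187 CPM in WT-vehicle 4, WT-vehicle 1 and Tg2576-vehicle 1. Endothelial cells of 6 mice ranged from 622 to 1800 CPM with a median of 1110, and astrocytes of 13 mice from 0 to 181 CPM with a median of 48.1. Neither range overlapped with that of astrocytes, but the ependymal and endothelial ranges overlapped with each other, and mural cells, from 0 to 306 CPM in 6 mice, overlapped with astrocytes.

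The difference between types was tested on UMIs summed over the cells of a type in each mouse, with the mouse as a block, by the quasi-likelihood test of edgeR, with p-values adjusted over all genes tested after Benjamini and Hochberg. In the 6 mice with enough cells of both, Vim was 3.92 ± 0.38 (log2, SE) higher in endothelial cells than in astrocytes (edgeR, adjusted p = 1.02e-13), with means of 1218 ± 420 and 86.5 ± 62.7 CPM (SD, n = 6 mice), and 62.2% of the 1144 genes tested differed between these types. In 3 mice it was 5.07 ± 0.44 higher in ependymal cells than in astrocytes (edgeR, adjusted p = 2.57e-17), where 45.9% of genes differed. In 5 mice it was lower in mural than in endothelial cells by 2.87 ± 0.38 (log2 difference -2.87, edgeR, adjusted p = 1.87e-09), where 46.9% of genes differed. Vim entered these 3 fits only through the endothelial or ependymal cells in which it was high, so that a difference from astrocytes, or from mural cells with 34 against 226 UMIs, was bound to appear. It did not pass the filter on low counts for mural cells against astrocytes, and without that filter the difference was 0.43 ± 0.57 (edgeR, adjusted p = 0.866). With cells of marker-named clusters the unfiltered difference between mural cells and astrocytes was 1.81 ± 0.50 (edgeR, adjusted p = 0.00421, n = 6 mice, 66 against 71 UMIs), with 10.6% of all genes past the threshold, although the mice overlapped, from 0 to 375 CPM in mural cells and from 14.4 to 174 CPM in astrocytes. Of the 72 Vim UMIs in the mural cluster, 27 lay in 20 cells that the marker gate left unnamed, so that the call depended on how mural cells were defined. Nor did it pass for astrocytes against microglia over 19 libraries, where the unfiltered difference was 0.38 ± 0.40 (edgeR, adjusted p = 0.65). These libraries came from 11 mice, and the cortex and hippocampus libraries of 1 mouse are not independent samples. With the regions of a mouse summed, which gave 13 mice, the unfiltered difference was 0.66 ± 0.37 (edgeR, adjusted p = 0.26).

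**Figure D2:**
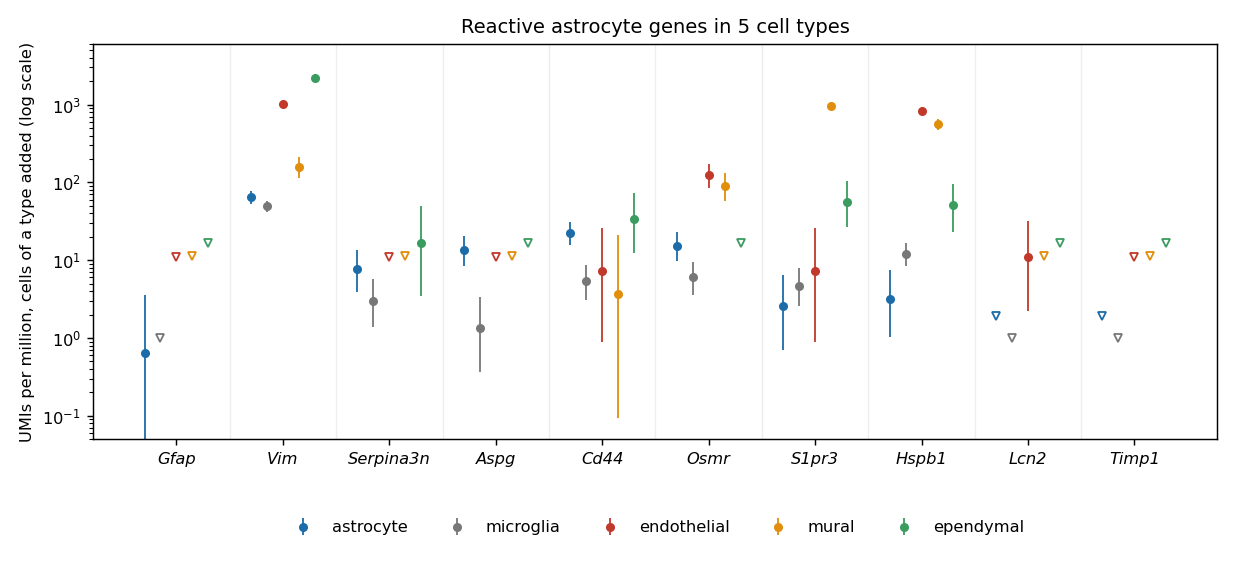
Level of each of the 10 genes in 5 cell types, as UMIs per 1000000 of all cells of a type added, on a log axis with exact 95% Poisson intervals (the interval of Gfap in astrocytes runs below the axis). Open triangles mark types with 0 UMIs, drawn at the level that 3 UMIs would have given. Vim is highest in ependymal and endothelial cells, S1pr3 in mural cells and Hspb1 in endothelial and mural cells, while Aspg was seen in astrocytes and microglia only among these 5 types.

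Hspb1, the small heat shock protein, was a gene of vessel cells here. Endothelial cells held 827 CPM (723 to 942) and mural cells 555 CPM (470 to 652), against 50.6 CPM in ependymal cells, 12.0 CPM (8.40 to 16.6) in microglia and 3.19 CPM (1.04 to 7.45) in astrocytes, whose 5 UMIs came from 5 cells. Of the 2671 microglia, 1053 lay outside the clusters named microglia by the same markers, and these held 31 of the 36 UMIs of Hspb1. The 1663 cells of the microglia clusters were at 2.27 CPM (5 UMIs) and the astrocyte clusters at 2.76 CPM. In endothelial cells the 6 mice ranged from 616 CPM (WT-vehicle 1) to 1181 CPM (Tg2576-vehicle 3), and in mural cells from 276 CPM (Tg2576-PMX205 3) to 770 CPM (WT-vehicle 1). Every one of these values lay far above the astrocyte values of 13 mice, of which 10 were at 0 and the highest was 18.1 CPM. The difference from astrocytes was 7.41 ± 0.50 for endothelial cells (edgeR, adjusted p = 5.79e-20, n = 6 mice) and 6.85 ± 0.55 for mural cells (edgeR, adjusted p = 7.69e-13, n = 6 mice), on the log2 scale. Of all genes tested, 57.9% differed between mural cells and astrocytes. Hspb1 passed the filter on low counts only through the vessel cells, so that a difference was bound to appear, and its size rests on 4 astrocyte UMIs in those mice. Between mural and endothelial cells the log2 difference was -0.58 ± 0.31 (edgeR, adjusted p = 0.125, n = 5 mice). It passed the threshold without WT-vehicle 1 (-0.86, edgeR, adjusted p = 0.045) and with barcodes that differ only in their first base merged and the repeated family left out (-0.77, edgeR, adjusted p = 0.031).

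S1pr3, the sphingosine 1-phosphate receptor, was highest in mural cells. They held 257 of the 331 UMIs in cells kept, at 958 CPM (844 to 1082). The other types held 7.26 CPM in endothelial cells, 56.2 CPM in ependymal cells, 4.66 CPM in microglia and 2.55 CPM (0.696 to 6.54) in astrocytes. The 6 mice gave 718, 889, 896, 1091, 1103 and 1138 CPM in mural cells, with the 2 Tg2576-vehicle mice and the 2 Tg2576-PMX205 mice falling between the 2 WT-vehicle mice. The difference was 8.94 ± 0.49 against astrocytes (edgeR, adjusted p = 5.44e-17, n = 6 mice, 236 against 1 UMI) and 6.49 ± 0.60 against endothelial cells (edgeR, adjusted p = 2.81e-14, n = 5 mice, 218 against 2 UMIs), on the log2 scale, and here too the gene passed the filter only through mural cells. In the marker-named clusters, endothelial cells held 29 UMIs of S1pr3 in 18 cells (73.9 CPM), of which 25 lay in 14 cells that the marker gate left unnamed, and mural cells 263 UMIs (962 CPM), and the difference between these types fell to 4.36 (edgeR, adjusted p = 5.46e-06). A UMI of S1pr3 was seen in 47.9% of mural cells and 0.858% of endothelial cells. With every cell thinned to 500 UMIs the shares were 32.0% and 0%, or 83 of 259 and 0 of 233 cells. The median depths of both types were similar (925 and 1052 UMIs).

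**Figure D3:**
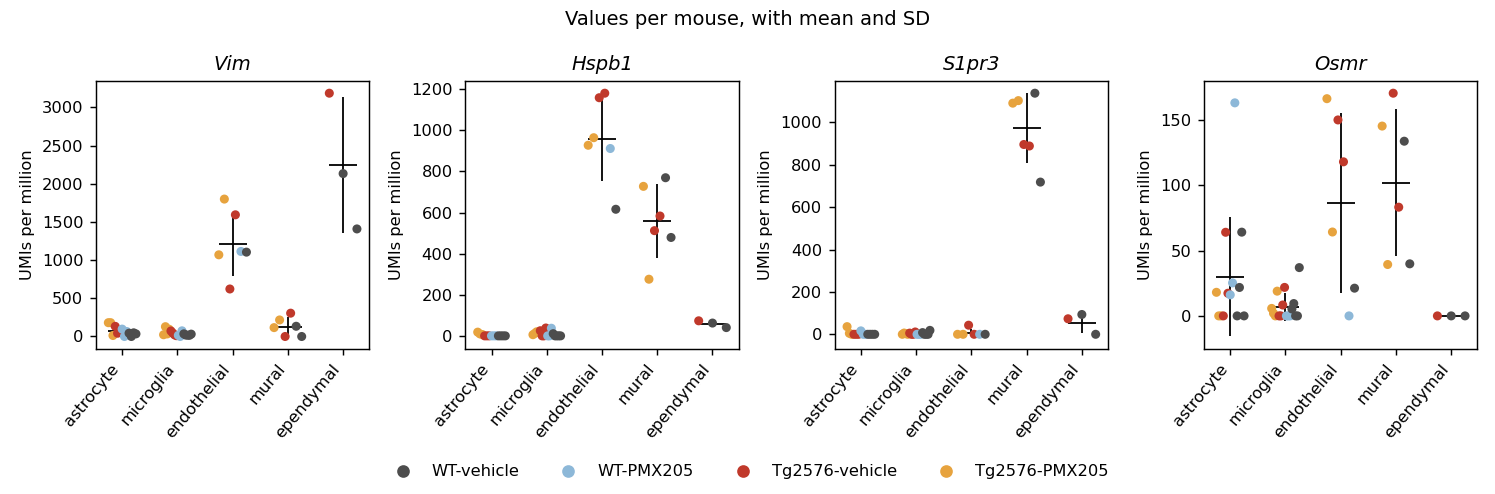
Level of Vim, Hspb1, S1pr3 and Osmr in each mouse with at least 10 cells of a type, in UMIs per 1000000, coloured by genotype and treatment, with the mean (horizontal line) and SD (vertical line). S1pr3 lies between 718 and 1138 in mural cells of 6 mice and at or below 93.5 in every other type.

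Osmr, the oncostatin M receptor, was also higher in vessel cells than in astrocytes. Its level was 123 CPM (85.4 to 172) in endothelial cells, 89.5 CPM (57.3 to 133) in mural cells, 15.3 CPM (9.81 to 22.8) in astrocytes and 5.995 CPM (3.55 to 9.48) in microglia, with 0 UMIs in ependymal cells, where 3 would have given 16.85 CPM. The microglial level rested mostly on cells outside the marker-named microglia clusters, which held 16 of the 18 UMIs. The clusters themselves were at 1.36 CPM (3 UMIs, 1 of them in a cell that the marker gate left unnamed), against 14.9 CPM in the astrocyte clusters. Single mice with at least 10 cells of a type overlapped between the types. They ranged from 0 to 166.5 CPM in endothelial cells (6 mice), from 39.4 to 171 CPM in mural cells (6 mice) and from 0 to 163 CPM in astrocytes (13 mice). In the 6 mice of the mural comparison astrocytes reached at most 17.4 CPM. Osmr was too low for the filtered tests. Without the filter it was higher than in astrocytes by 3.49 ± 0.97 in endothelial cells (edgeR, adjusted p = 0.00466, 25 against 4 UMIs) and by 4.26 ± 0.95 in mural cells (edgeR, adjusted p = 0.000151, 24 against 3 UMIs), with 10.8% and 10.4% of all genes past the same threshold. In astrocytes the 24 UMIs came from 14 cells, and 3 cells gave 12 of them, so the highest mouse value, 163 CPM in WT-PMX205 3, was 5 UMIs in 1 cell.

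Aspg and Cd44 were the members that passed the threshold for a higher level in astrocytes than in microglia, in a fit without the filter on low counts. Aspg had 21 UMIs in astrocytes (13.4 CPM, 8.30 to 20.5), 4 in microglia (1.33 CPM, 0.363 to 3.41) and 0 in endothelial, mural and ependymal cells, where 3 UMIs would have given 10.9, 11.2 and 16.9 CPM. Cd44 had 22.3 CPM (15.6 to 31.1) in astrocytes, 5.33 CPM (3.05 to 8.65) in microglia and 33.7 CPM (12.4 to 73.4) in ependymal cells, and 2 UMIs in endothelial and 1 in mural cells. In the microglia clusters Aspg was at 0.454 CPM (1 UMI, in a cell that the marker gate left unnamed) and Cd44 at 4.54 CPM. Neither passed the filter on low counts. Over the 19 libraries with at least 20 cells of both types, the unfiltered fit placed Aspg 2.31 ± 0.89 (edgeR, adjusted p = 0.0421, 18 against 2 UMIs) and Cd44 1.83 ± 0.71 (edgeR, adjusted p = 0.0463, 32 against 12 UMIs) higher in astrocytes on the log2 scale, and 22.7% of all genes passed that threshold. The 19 libraries came from 11 mice, so that p-values over libraries may be too small. With the regions of a mouse summed, the unfiltered differences in 13 mice were 3.00 ± 1.05 for Aspg (edgeR, adjusted p = 0.0227, 18 against 2 UMIs) and 1.99 ± 0.68 for Cd44 (edgeR, adjusted p = 0.0172, 34 against 15 UMIs), with 21.3% of all genes past the threshold. For Vim, Serpina3n, S1pr3, Osmr and Hspb1 the fit over libraries gave edgeR adjusted p of 0.211 or more, and of the members in the fit over mice Osmr came next, at 1.88 ± 0.80 (edgeR, adjusted p = 0.0799). Of 13 mice, 8 had a UMI of Aspg and 8 a UMI of Cd44 in astrocytes, and the highest values, 28.9 CPM of Aspg in Tg2576-vehicle 3 and 101 CPM of Cd44 in WT-PMX205 2, were 5 UMIs in 1 cell and 4 UMIs in 2 cells.

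Serpina3n, the protease inhibitor, had only 69 UMIs in cells kept. Astrocytes held 12 of them in 9 cells (7.66 CPM, 3.96 to 13.4) and microglia 9 in 6 cells (3.00 CPM), although the 1663 cells of the marker-named microglia clusters held 0. Oligodendrocyte precursors held 5 UMIs in 3 of 26 cells (107 CPM, 34.8 to 250), ependymal cells 3 (16.85 CPM), endothelial and mural cells 0, and neurons 2 in 7 cells (91.4 CPM), and 38 UMIs lay in cells of no named type. In clusters built without the members and named by the same markers, the 74 cells of the oligodendrocyte precursor cluster held 14 UMIs in 8 cells (126 CPM), against 9.39 CPM in the astrocyte clusters. That cluster was mixed by the marker gate, with 12 gated astrocytes, 7 gated microglia and 22 unnamed cells. The unnamed cells held 5 of the 14 UMIs and the gated microglia 0.

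The other genes of the same pathway and of the fixed reactive lists were counted in the same astrocytes. All 4 gp130 and STAT3 receptor genes of the list were detected, Lifr at 150 CPM, Il6st (gp130) at 117 CPM, Cntfr at 78.5 CPM and Il6ra at 28.7 CPM, as were Stat3 at 142 CPM and Jak1 at 159 CPM. Of the 5 ligands, 4 had fewer than 10 UMIs and Lif had 16. Of 12 genes of the A1 reactive list 5, and of 12 genes of the A2 list 9, had fewer than 10 UMIs in astrocytes, and the median was 9.57 and 0.319 CPM. Against microglia, where 78.5% of the 1364 genes tested differed, all 12 resting astrocyte genes tested were higher in astrocytes, with a median log2 difference of 4.44 against -0.18 over all genes. They were Aldoc, Atp1b2, Cldn10, Fgfr3, Gjb6, Glud1, Glul, Kcnj10, Ntsr2, Slc1a3, Slc4a4 and Sox9. Of the plaque-associated astrocyte list, Apoe, Aqp4, Clu, Cpe and Id3 were higher in astrocytes, and Cd9, Cst3 and Ctsb were higher in microglia. The A1 genes H2-D1 and Srgn, the A2 gene Cd14, and Il6ra, Il6st and Jak1 were higher in microglia. Of these, Srgn, Cd14, Il6ra, Il6st and Jak1 passed the filter on low counts through microglia alone, and H2-D1 passed it with both types together, on 2 astrocyte and 15 microglia libraries. Likewise, 8 of the 12 resting astrocyte genes, and Aqp4, Cpe and Id3, passed it through astrocytes alone, so that a difference in this direction was favoured by the filter and these counts are no support for it. The heat shock gene Hspa8, which passed the filter on both types together, was 0.48 ± 0.19 higher in astrocytes (edgeR, adjusted p = 0.0222).

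The same lists were read in the comparisons with vessel and ependymal cells. Against astrocytes, 62.2% of 1144 genes tested differed in endothelial cells, 57.9% of 1224 in mural cells and 45.9% of 1319 in ependymal cells. Between mural and endothelial cells 46.9% of 683 genes differed. All 12 resting astrocyte genes tested were lower than in astrocytes in endothelial and in mural cells, and 10 of 12 in ependymal cells, where Kcnj10 and Sox9 did not pass. Tm4sf1, a membrane protein of the A2 list, was higher in endothelial (5.96 ± 0.44), mural (6.78 ± 0.37) and ependymal cells (7.22 ± 0.66) on the log2 scale. In endothelial cells the A1 genes H2-D1 and Srgn, the filament genes Nes (nestin) and Plec (plectin), Il6st, Stat3 and, of the plaque-associated list, Fxyd5 and Id3 were also higher, and Apoe, Aqp4, Clu, Cpe, Cst3 and Ctsb were lower. In mural cells Il6st and Jak1 were higher, and Apoe, Aqp4, Cd9, Clu, Cpe and Id3 were lower. In ependymal cells the heat shock genes Hsp90aa1 and Hsph1, Plec, and the plaque-associated genes Cd9, Gsn and Igfbp5 were higher, and Apoe, Clu, Cst3 and Id3 were lower. Between mural and endothelial cells, Atp1b2, Cp, Cst3, Ctsb and Jak1 were higher in mural cells and Fxyd5, Glul, H2-D1, Id3, Nes and Srgn in endothelial cells. Through which type each of these genes passed the filter on low counts was not tabulated, so that these counts are given as a description.

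In the comparison of genotypes in astrocytes, Vim was the only member that passed the filter on low counts, and the others are given by their UMIs. It was made in libraries with at least 20 astrocytes, which left in cortex 4 WT-vehicle, 2 Tg2576-vehicle, 3 Tg2576-PMX205 and 2 WT-PMX205 mice. In cortex, Vim was at 31.7, 0, 51.4 and 22.9 CPM in WT-vehicle 1 to 4 and at 151 and 79.4 CPM in Tg2576-vehicle 1 and 3. Both Tg2576-vehicle libraries lay above all 4 WT-vehicle libraries, as did 7.27% of all genes tested. The log2 difference was 1.79 ± 0.92 (edgeR, adjusted p = 0.987), from 14 against 12 UMIs, and 0.0271% of 3686 genes were past the threshold. No difference was thus called, with 2 against 4 libraries and these few UMIs. One of the 2 Tg2576-vehicle mice has contradicting labels, and without both mice of that kind the log2 difference was 2.13 (edgeR, adjusted p = 0.581), with 1 Tg2576-vehicle library left that is assumed to vary like the other groups. With cells of marker-named clusters it was 0.60 (edgeR, adjusted p = 0.988), and over all alternatives the adjusted p lay between 0.536 and 0.999.

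The other members had few UMIs in these cortex libraries. Cd44 was at 60.3 and 17.6 CPM in Tg2576-vehicle and from 0 to 31.65 CPM in WT-vehicle, with 4 against 7 UMIs, and the groups overlapped (unfiltered log2 difference 0.75 ± 1.23, edgeR, adjusted p = 0.975). Aspg had 0 UMIs in Tg2576-vehicle and 5 in WT-vehicle, Serpina3n 2 and 5, and Osmr 1 and 2. Gfap, Lcn2, Timp1, S1pr3 and Hspb1 had 0 UMIs in both groups. In the unfiltered fits of genotype and of treatment described here and in the following paragraphs, the lowest adjusted p of any member in astrocytes or microglia was 0.802 (edgeR). No gene of the other lists passed the threshold in any comparison of genotype or treatment in astrocytes.

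In hippocampus no member passed the filter. Vim was at 83.7, 0, 36.5 and 68.1 CPM in WT-vehicle 1 to 4 and at 110 and 0 CPM in Tg2576-vehicle 1 and 3, and the groups overlapped. Tg2576-vehicle and WT-vehicle had 2 and 8 UMIs of Osmr, 5 and 2 of Aspg, 0 and 1 of Serpina3n and 0 and 1 of Gfap, and 0 of the other 5 members. The count of genes past the threshold was 0 of 813 (0%) by edgeR, with 22 genes at an unadjusted p under 0.05 and 0 genes by DESeq2.

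**Figure D4:**
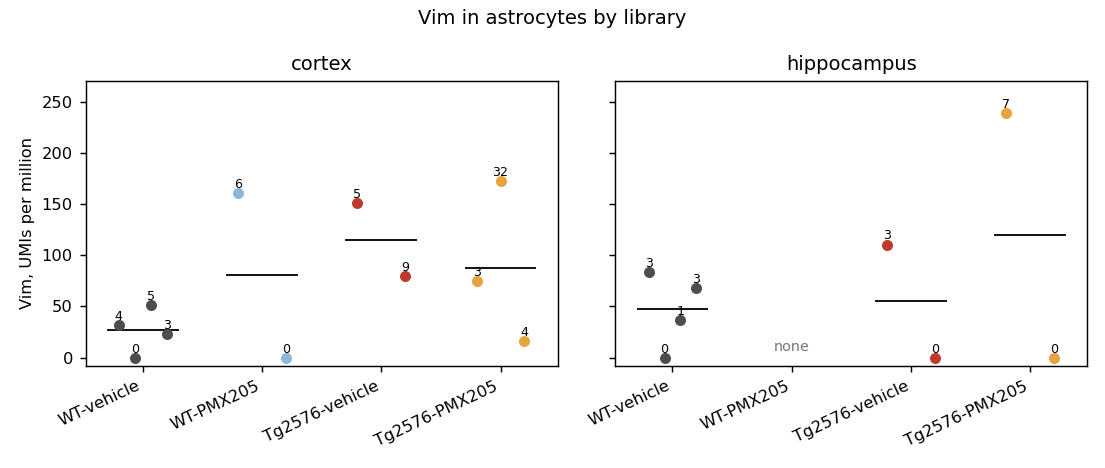
Vim in astrocytes of each library with at least 20 astrocytes, in UMIs per 1000000, by region and group. Numbers above the points are the UMIs of Vim, and horizontal lines are group means. In cortex the 2 Tg2576-vehicle libraries, at 79.4 and 151, lie above the 4 WT-vehicle libraries, and the other groups overlap.

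PMX205 treatment was compared with the vehicle group of the same genotype. In cortex astrocytes of Tg2576-PMX205 1, 2 and 3, Vim was at 74.4, 172 and 16.2 CPM, a range that contains both Tg2576-vehicle values (log2 difference -0.20 ± 0.89, edgeR, adjusted p = 0.996). Tg2576-PMX205 2 held 32 of the 39 UMIs of its group, and without it the difference was -1.62 (edgeR, adjusted p = 0.999). Of the other members, Cd44 had 15 UMIs in Tg2576-PMX205 and 4 in Tg2576-vehicle, and the direction depended on how libraries were weighted, with means over libraries of 23.8 and 38.96 CPM and, with all cells added, 31.7 and 27.3 CPM (unfiltered log2 difference 0.11 ± 1.11). Hspb1 had 4 and 0 UMIs, S1pr3 3 and 0, Aspg 2 and 0, Serpina3n 1 and 2, and Osmr 0 and 1, while Gfap, Lcn2 and Timp1 had 0 in both. This comparison shares its Tg2576-vehicle libraries with the one between genotypes. In WT-PMX205 1 and 2 the values were 160 and 0 CPM, the first above and the second at the lower end of the WT-vehicle range (1.45 ± 1.07, edgeR, adjusted p = 0.827, with 0.0271% of genes past the threshold). Osmr was at 26.7 and 34.3 CPM in WT-PMX205, from 1 UMI in each library, and from 0 to 16.6 CPM in WT-vehicle, also from 2 UMIs. Both WT-PMX205 libraries lay above all 4 WT-vehicle libraries, as did 10.7% of all genes tested (unfiltered log2 difference 1.95 ± 1.89, edgeR, adjusted p = 0.944). Cd44 had 4 UMIs in WT-PMX205 and 7 in WT-vehicle, Serpina3n 0 and 5, Aspg 1 and 5, and S1pr3 1 and 0, while Gfap, Lcn2, Timp1 and Hspb1 had 0 in both. In hippocampus astrocytes of Tg2576-PMX205 2 and 3, Vim was at 239 and 0 CPM and did not pass the filter. There Tg2576-PMX205 and Tg2576-vehicle had 3 and 5 UMIs of Aspg, 2 and 0 of Cd44, 1 and 0 of Serpina3n and 0 and 2 of Osmr, and 0 of the other 5 members. Both Tg2576-PMX205 mice in this hippocampus comparison carried many pairs of barcodes that differ only in the first base (33.9% and 23.5% of barcodes) and both Tg2576-vehicle mice carried none, so that treatment and this barcode pattern cannot be told apart. In cortex, where Tg2576-PMX205 1 (0.396%) was also measured, the Vim difference with the pattern as a covariate was -0.46 (edgeR, adjusted p = 0.962). No WT-PMX205 hippocampus library held 20 astrocytes, so that PMX205 could not be compared with vehicle in WT hippocampus. For Tg2576-PMX205 against Tg2576-vehicle, edgeR called 0 of 3686 genes in cortex and 0 of 813 in hippocampus (0% each), with 128 and 58 genes at an unadjusted p under 0.05, and DESeq2 called 0 genes in both. Some other settings did call genes in each region, and they are listed in the closing section on processing.

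Astrocytes with a Vim UMI also carried more UMIs of endothelial and ependymal markers, the types in which Vim was high, and of mural markers, although Vim passed the threshold between mural cells and astrocytes only with cells of marker-named clusters. The 61 astrocytes with a UMI of Vim held 306 CPM of the 5 endothelial markers together, 1845 CPM of the 5 mural markers and 464 CPM of the 5 ependymal markers, against 42.6, 229 and 60.9 CPM in the 1176 astrocytes without one. Microglial markers were alike, 2546 and 2476 CPM, and median depths were 1257 and 1058 UMIs. Cells of all mice were pooled, and the contrast was not made within mice. Of the 61 cells, 23 came from the cortex library and 3 from the hippocampus library of Tg2576-PMX205 2. Tg2576-PMX205 2, whose astrocytes held 39 of all 101 Vim UMIs and whose cortex astrocytes had 1129 CPM of mural markers, was also the mouse with the most endothelial (81) and mural (70) cells and with the highest Vim level in microglia (128.5 CPM). Its hippocampus astrocytes, however, held 7 UMIs of Vim (239 CPM) with all 3 marker sets at 0 CPM. Over the libraries with at least 20 astrocytes in cortex, mural markers ranged from 130 to 414 CPM in WT-vehicle and were 362 and 291 CPM in Tg2576-vehicle 1 and 3. Endothelial markers ranged from 0 to 47.5 CPM in WT-vehicle and were 181 and 52.9 CPM in Tg2576-vehicle 1 and 3, and ependymal markers ranged from 23.7 to 82.9 CPM and were 211 and 115 CPM. Both the endothelial and the ependymal markers were thus higher in both Tg2576-vehicle libraries than in all 4 WT-vehicle libraries. So were Vim and 7.27% of all genes tested. The endothelial margin was small, with 52.9 CPM in Tg2576-vehicle 3 against 47.5 CPM in WT-vehicle 1. It rested on few UMIs, since Flt1, the endothelial marker with the most, held 31 in all astrocytes. The part of RNA from other cells in the Vim level of astrocytes was not tested.

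**Figure D5:**
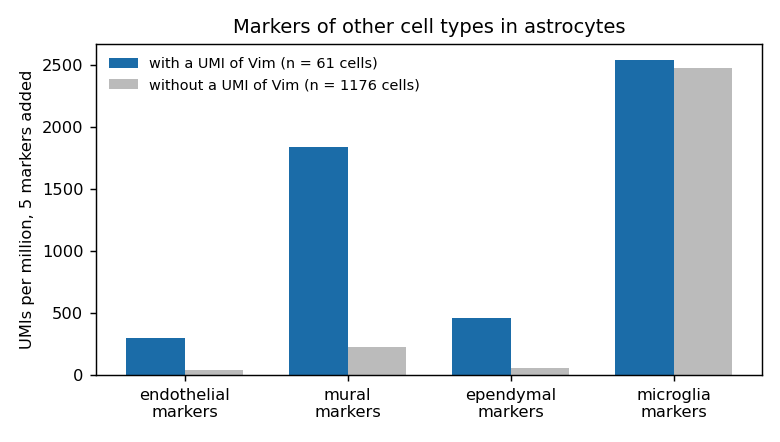
Summed level of the 5 markers of each of 4 other cell types in astrocytes with (61 cells) and without (1176 cells) a UMI of Vim, in UMIs per 1000000. Endothelial, mural and ependymal markers are higher in the astrocytes with Vim, and microglial markers are alike. Cells of all mice are pooled.

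Vim was also compared in microglia, which gave more cells. The values were 15.0 to 34.6 CPM in 5 WT-vehicle mice, 10.9, 20.9, 44.6 and 72.1 CPM in Tg2576-vehicle and 22.9, 33.7, 94.8 and 128.5 CPM in Tg2576-PMX205, and the groups overlapped. The log2 difference was 0.64 ± 0.70 for Tg2576-vehicle against WT-vehicle (edgeR, adjusted p = 0.999) and 0.84 ± 0.67 for Tg2576-PMX205 against Tg2576-vehicle (edgeR, adjusted p = 0.999), and 0.147% and 0% of 4773 genes passed. For the second comparison 114 genes had an unadjusted p under 0.05, and DESeq2 called 0 genes. In WT-PMX205 the 3 mice gave 0, 15.0 and 74.2 CPM (-0.42 ± 1.11 against WT-vehicle, edgeR, adjusted p = 0.983, 0% of genes past the threshold by edgeR and 0 by DESeq2, with 306 genes at an unadjusted p under 0.05). Of the 149 Vim UMIs in microglia, 70 lay outside the marker-named microglia clusters, at 82.75 CPM against 36.6 CPM in the gated microglia inside them. With all mice added, the clusters were at 16.1 CPM in WT-vehicle, 26.4 in Tg2576-vehicle, 62.95 in Tg2576-PMX205 and 7.33 in WT-PMX205, against 26.9, 42.3, 79.0 and 17.5 CPM in the gated microglia, and Vim did not pass the filter on low counts with cells of these clusters. The 86 microglia with a UMI of Vim held 647 CPM of endothelial markers and 203 CPM of ependymal markers, against 145.5 and 21.8 CPM in the 2585 without one, and the part of RNA from other cells in this level was not tested.

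Of the other lists, 1 gene passed the threshold between groups in microglia, the plaque-associated gene Apoe, which encodes the lipid carrier apolipoprotein E. It was at 8415, 13670, 14160 and 4892 CPM in Tg2576-vehicle 1 to 4 and from 2511 to 4698 CPM in the 5 WT-vehicle mice. All Tg2576-vehicle mice lay above all WT-vehicle mice, as in 0.608% of all genes tested (log2 difference 1.75 ± 0.39, edgeR, adjusted p = 0.0464). The call was held narrowly. Without 1 mouse the difference lay between 1.58 and 2.00, and the adjusted p passed the threshold without Tg2576-vehicle 4 (edgeR, 0.004) or WT-vehicle 1 (edgeR, 0.027) and not without any of the other 7 mice (edgeR, 0.0738 to 0.257, the highest without Tg2576-vehicle 2). With cells of marker-named clusters it was 2.26 ± 0.33 (edgeR, adjusted p = 0.000108), and with barcodes merged and the repeated family left out 1.91 ± 0.45 (edgeR, adjusted p = 0.116).

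Among the other members in microglia, Hspb1 had 16 UMIs in Tg2576-vehicle and 4 in WT-vehicle. It was at 24.96, 0, 0 and 38.2 CPM in Tg2576-vehicle 1 to 4, and in WT-vehicle at 10.65 CPM in 1 mouse and 0 in the other 4, so that the groups overlapped (unfiltered log2 difference 2.07 ± 1.06, edgeR, adjusted p = 0.802). Tg2576-PMX205 had 15 UMIs of Hspb1 and WT-PMX205 1. Cd44 had 11 UMIs in Tg2576-PMX205 (10.1 CPM over all mice added), 3 in Tg2576-vehicle (3.53 CPM), 2 in WT-vehicle and 0 in WT-PMX205. Osmr had 9 UMIs in WT-vehicle, 6 in Tg2576-vehicle, 3 in Tg2576-PMX205 and 0 in WT-PMX205. In the same order of groups S1pr3 had 6, 4, 4 and 0 UMIs, Aspg 3, 0, 1 and 0, and Serpina3n 1, 1, 4 and 3. Gfap, Lcn2 and Timp1 had 0 in every group. Except for Cd44, most of these UMIs lay outside the marker-named microglia clusters. The counts within the clusters cover all their 1663 cells, 45 of which the marker gate left unnamed. There Hspb1 had 1 UMI in WT-vehicle, 1 in Tg2576-vehicle, 3 in Tg2576-PMX205 and 0 in WT-PMX205. In the same order Osmr had 3, 0, 0 and 0, S1pr3 0, 0, 2 and 0, Aspg 0, 0, 1 and 0, Serpina3n 0 in each, and Cd44 0, 1, 9 and 0.

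In vessel cells, with 1 or 2 mice of a group having 10 cells of a type, no test between groups was run. Hspb1 in endothelial cells was 616 CPM in the 1 WT-vehicle mouse, 912 CPM in the 1 WT-PMX205 mouse, 1159 and 1181 CPM in 2 Tg2576-vehicle mice and 928 and 964 CPM in 2 Tg2576-PMX205 mice. With all cells of a group added, WT-vehicle held 531 CPM (378 to 726) and Tg2576-vehicle 1172 CPM (924 to 1467), intervals that cover counting error and not the spread between mice. In mural cells the WT-vehicle level of Hspb1 was 661 CPM (478 to 890) and the Tg2576-vehicle level 534 CPM (372 to 743). For S1pr3 in mural cells, the 2 WT-vehicle mice enclosed the values of all 4 transgenic mice, and for Vim the groups overlapped in both types wherever 2 mice were measured.

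Between regions, 8 mice had at least 20 astrocytes in both libraries. No member passed the filter on low counts in this comparison, in which 4.14% of 990 genes differed, and from the fixed lists Apoe (0.47 ± 0.10, edgeR, adjusted p = 0.000568) and Cpe (0.45 ± 0.11, edgeR, adjusted p = 0.007) were higher in hippocampus on the log2 scale. In the unfiltered fit the adjusted p of the members with a UMI was 0.735 or more. Over all astrocytes, Vim was 63.1 CPM (49.4 to 79.3) in cortex and 68.4 CPM (45.5 to 98.9) in hippocampus. Cd44 was 26.8 CPM (18.2 to 38.01) in cortex and 9.78 CPM (2.66 to 25.03) in hippocampus, while Osmr was 9.502 CPM (4.74 to 17.0) and 31.8 CPM (16.9 to 54.3) and Aspg 9.502 CPM (4.74 to 17.0) and 24.4 CPM (11.7 to 44.9). Serpina3n was 6.91 CPM in cortex and 9.78 CPM in hippocampus, or 3.77 CPM without the cortex library of WT-vehicle 3 and 4.90 CPM without the hippocampus library of Tg2576-PMX205 4. In cortex and hippocampus S1pr3 had 4 and 0 UMIs, Hspb1 4 and 1 and Gfap 0 and 1, and Lcn2 and Timp1 had 0 in both. Single libraries carried much of these levels: without WT-vehicle 3, hippocampal Osmr was 15.7 CPM, without WT-PMX205 3, cortical Osmr was 5.27 CPM, without Tg2576-vehicle 3, hippocampal Aspg was 14.3 CPM, and without Tg2576-PMX205 1, hippocampal Cd44 was 5.07 CPM. The level of Vim in cortex was 42.2 CPM without Tg2576-PMX205 2. In the fit the log2 difference, hippocampus minus cortex, was -2.38 ± 1.24 for Cd44, 1.73 ± 1.34 for Osmr and 1.20 ± 1.21 for Aspg. By strain label, Vim in astrocytes was at 72.3 CPM in the 5 mice labelled with C5a overexpression from the GFAP promoter, 28.8 CPM in the 5 labelled C5ar1 knockouts and 75.7 CPM in the 6 with neither, the last falling to 48.5 CPM without the cortex library of Tg2576-PMX205 2. Serpina3n was at 16.1 CPM, 11.51 CPM and 2.36 CPM. Without the cortex library of WT-vehicle 3 the first of these was 7.24 CPM, and without the hippocampus library of Tg2576-PMX205 4 the second was 5.77 CPM. In the same order of labels, Cd44 was at 13.4, 8.63 and 31.9 CPM, Osmr at 32.1, 28.8 and 2.36 CPM and Aspg at 18.7, 17.3 and 9.46 CPM. Single libraries again carried much of these levels. In the mice labelled with C5a overexpression, Osmr was 14.45 CPM without the hippocampus library of WT-vehicle 3, Aspg 6.37 CPM without that of Tg2576-vehicle 3 and Cd44 8.37 CPM without that of Tg2576-PMX205 1. In the labelled knockouts, Osmr was 15.2 CPM without the cortex library of WT-PMX205 3 and Aspg 8.69 CPM without that of Tg2576-PMX205 4, and all 3 UMIs of Cd44 came from the cortex library of WT-vehicle 4. In the mice with neither label, Osmr had 2 UMIs and was 1.24 CPM without the cortex library of WT-PMX205 1. The 1 UMI of Gfap lay in the mice labelled with C5a overexpression.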

How the data were processed

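Cells of 16 mice were profiled by SureCell single-cell RNA-seq. Per the study's methods, the authors aligned reads with kallisto bustools (kb_python) to mm10 with GENCODE annotation, and the deposited files hold raw UMI counts per gene and barcode, with no barcode under 300 UMIs. The submitters' processing notes also name bcl2fastq 2.18.0.12 and Seurat. Cells were kept at 500 UMIs, 300 genes and at most 5% mitochondrial UMIs, the limits stated in the methods, and the highest-scoring 6% of each library by Scrublet (scanpy 1.11.5) were removed as doublets. An astrocyte had at least 75% of its astrocyte and microglia marker UMIs from astrocyte markers and at least 2 markers seen; microglia mirrored this, and a rarer type needed 3 of its 5 markers and 25% of the marker UMIs. These limits were set after marker counts had been seen. UMIs were summed per library or mouse and tested with edgeR 4.0.16 (filterByExpr, TMM, quasi-likelihood, Benjamini-Hochberg at 0.05), per region with all groups in 1 fit, or with the mouse or library as a block, which pairs regions and cell types of the same animal as the sample titles do. DESeq2 1.42.0 and other settings were alternatives. The script was tested on simulated data. The comparisons with endothelial, mural and ependymal cells and those within microglia were added after the data were seen.

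The members and gene lists were chosen with earlier results of these data known. All 10 members were to be named in every comparison, those too low to test by their levels or UMIs, with those genes of the lists that passed the threshold, and the 5 genes most like Gfap were not sought because it had 1 UMI in astrocytes. The counts of overlapping genes are uncertain, since the counting command given in the methods names no strand option, and how strand was then treated was not tested. Precision is limited by depth: libraries held 37205 to 1072049 UMIs.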

Additional observations from a re-analysis of the deposited data

Results flagged for a closer look

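Values far from the rest of their group were sought in 21 groups of 4 or 5 mice in which at least 2 mice had a UMI of the gene, by Dixon's ratio of a gap to the range at its 95% critical value, a level at which chance sets apart about 1 group in 20. The one found was Osmr in microglia of WT-vehicle mice, where WT-vehicle 5 held 37.02 CPM, from 6 UMIs in 3 of 149 cells, and the next mouse 9.46 CPM. In the marker-named microglia clusters, all WT-vehicle mice together held 3 UMIs of Osmr.

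The 1093 cells that the marker gate left unnamed entered no comparison other than those made with cells of marker-named clusters, and held UMIs of the members above the 3 that a count of 0 allows: Vim 219 UMIs, Hspb1 125, S1pr3 44, Serpina3n 38, Osmr 37, Cd44 11 and Aspg 5. Their median depth was 706 UMIs. In the clusters named by the same markers, 54 of these cells lay with the endothelial cells and held 74 of the Vim UMIs, 78 of the Hspb1 UMIs, 25 of the S1pr3 UMIs and 18 of the Osmr UMIs, 20 lay with the mural cells and held 27 of the Vim UMIs, 39 of the Hspb1 UMIs and 10 of the S1pr3 UMIs, and 16 lay with the ependymal cells and held 54 of the Vim UMIs. Of the 38 Serpina3n UMIs, 26 fell in 8 cells of clusters that no marker set named.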

How the results depend on the processing

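Of 191 alternative values for the members, 184 kept their direction and their side of the threshold. Those that did not were Hspb1 in mural against endothelial cells, given in the report, and Vim in group comparisons that were not called, whose sign changed: for Tg2576-PMX205 against Tg2576-vehicle in cortex it was 0.66 with cells of marker-named clusters, 0.34 without Tg2576-PMX205 3 and 0.15 without Tg2576-vehicle 1, for WT-PMX205 against WT-vehicle in cortex -4.67 without WT-PMX205 1, where the remaining library held 0 UMIs and was assumed to vary like the other groups, and in microglia 0.32 without WT-PMX205 2. The causes were not tested.

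Of 229 alternative counts of genes called, 178 lay within 1.5 times the reported count, and the others follow. Without the filter on low counts, the genes called were 66 between regions, 2 for Tg2576-vehicle and 3 for WT-PMX205 against WT-vehicle in cortex, 4514 for astrocytes against microglia, 1799 for endothelial cells, 1752 for mural cells against astrocytes, 552 for mural against endothelial cells, and, in microglia, 19 for Tg2576-vehicle, 3 for Tg2576-PMX205 and 2 for WT-PMX205. With cells of at least 1000 UMIs they were 6 between regions, 0 and 1 for Tg2576-vehicle and Tg2576-PMX205 in cortex, 4 for Tg2576-vehicle in microglia and 379 for mural cells against astrocytes. The stricter gate gave 20 between regions and 0 for Tg2576-vehicle in cortex. A minimum of 10 cells gave 0 for Tg2576-vehicle and 4 for WT-PMX205 in cortex and 1 for Tg2576-vehicle in hippocampus. Without the 2 mice with contradicting labels, Tg2576-vehicle had 0, Tg2576-PMX205 5 and WT-PMX205 5 in cortex, and Tg2576-PMX205 9 in hippocampus. With the strain label as a covariate Tg2576-vehicle had 0 in cortex and Tg2576-PMX205 3 in hippocampus, and with a covariate for a barcode pattern shared by some mice Tg2576-vehicle had 2 and Tg2576-PMX205 4 in cortex. Keeping doublets gave 2 for Tg2576-vehicle in cortex, merging near-identical barcodes and leaving out the repeated family together gave 1 in hippocampus, marker-named clusters gave 1 for WT-PMX205 in microglia, and summing the regions of a mouse gave 1618 for astrocytes against microglia. Between regions, 23 genes were called without the mouse as a block, against 41 with this pairing.

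Leaving out 1 mouse at a time gave 28 to 39 genes between regions, 872 to 1276 for astrocytes against microglia, 594 to 863 for endothelial, 572 to 1067 (without Tg2576-vehicle 1) for mural and 240 (without WT-vehicle 1) to 910 (without Tg2576-vehicle 1) for ependymal cells against astrocytes, and 213 (without Tg2576-PMX205 2) to 346 for mural against endothelial cells. For Tg2576-vehicle it gave 0 (without WT-vehicle 1, 3 or 4) to 2 (without Tg2576-vehicle 1 or WT-vehicle 2) in cortex, 0 to 1 (without Tg2576-vehicle 3, WT-vehicle 1 or WT-vehicle 3) in hippocampus and 4 (without Tg2576-vehicle 1) to 8 in microglia, for Tg2576-PMX205 0 to 3 in cortex and 0 to 7 in hippocampus, both highest without Tg2576-vehicle 3, and 0 to 0 in microglia, and for WT-PMX205 1 to 2 (without WT-PMX205 2) in cortex and 0 to 0 in microglia. Not fitted were both hippocampus comparisons and WT-PMX205 in cortex with cells of at least 1000 UMIs, both hippocampus comparisons with the barcode covariate, and ependymal cells at a minimum of 20 cells. Lcn2, Serpina3n, Aspg and Cd44 had at most 105 UMIs each in all barcodes, which limits what could be tested. The alternatives for the vessel, ependymal and microglia comparisons and the unfiltered fits of astrocytes against microglia over mice and of mural cells against astrocytes in marker-named clusters, and those for Apoe, were chosen after seeing the data.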
